A study of Mus musculus with 4 samples.

Results

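Tendon proper, the dense fibre-bearing part of the mouse Achilles tendon, was located on spatial arrays by the RNA of 9 tendon genes, and 600 of 10574 spots were taken as members, 150 from each of 4 sections. A spot is a barcoded patch of the array that can hold several cells of different types, and RNA molecules were counted for each gene in each spot by their unique molecular identifiers (UMIs). Spots with at least 1000 UMIs were scored by the summed UMIs of Tnmd, Kera, Fmod, Comp, Thbs4, Chad, Scx, Mkx and Cilp2 as a percentage of the spot's total, and the 150 highest-scoring spots of each section became the members. These 9 genes chose the spots, so their level in members against the rest of a section is a description and was not tested. The remaining spots of at least 1000 UMIs are called the other spots.

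The sections were 10 µm thick and came from the injury site 14 days after a 0.5 mm punch biopsy was made in the left Achilles tendon of 12-week-old mice, about 2 mm above the heel bone. The F592A group (2 sections) carried the TrkA F592A allele and had the treatment label 1NMPP1, and the WT group (2 sections) carried wild-type TrkA and had the treatment label Control. TrkA is the receptor kinase through which nerve growth factor acts on pain-sensing and sympathetic nerve cells. The F592A substitution opens it to inhibition by 1NMPP1. Genotype and drug therefore cannot be told apart, and the labels do not say whether WT mice received the drug. Material of 4 mice was pooled for each genotype, from males and females, and no label ties a section to an animal. The p-values thus rest on differences among sections alone, which may be technical. In the members, Xist gave 0 and 1 UMIs in F592A 1 and F592A 2, and 0 and 619 UMIs in WT 1 and WT 2. From the Y chromosome, Uty, Kdm5d, Ddx3y and Eif2s3y together gave 1394 and 1361 UMIs in the F592A sections and 1284 and 5 UMIs in WT 1 and WT 2. Only WT 2 therefore held mainly female RNA, and sex differed within the WT pair. The F592A sections had tissue on 2429 shared array positions, against 1436 for the WT sections, and lay alike on the array. Whether they came from one animal was not tested.

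Tendon cells, or tenocytes, lie in rows between collagen fibres. Scx and Mkx are transcription factors of the tenocyte lineage, and Tnmd is a membrane glycoprotein typical of mature tenocytes. Fmod and Kera encode small leucine-rich proteoglycans that bind collagen fibrils and affect their thickness. Comp and Thbs4 are thrombospondins that bind collagen, Chad is a leucine-rich cell-binding matrix protein, and Cilp2 is a secreted matrix protein related to the cartilage intermediate layer protein Cilp. In an injured tendon, this tissue borders scar, the tendon sheath and, toward the calf, muscle.

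The members held 9374358 and 8715169 UMIs in F592A 1 and F592A 2, and 8186903 and 5842090 UMIs in WT 1 and WT 2. They were among the deepest spots, with a median of 32752 and 23380 UMIs in the F592A sections and 44108.5 and 29223 UMIs in the WT sections. The other spots had a median of 5162.5 and 6258.5 UMIs in F592A and 5763 and 7423 UMIs in WT. The lowest-scoring member had a score of 0.647% and 0.592% in F592A and 0.768% and 0.987% in WT, and the spot just outside had 0.646% and 0.591% in F592A and 0.766% and 0.986% in WT. The same number of spots was thus taken at a lower score in F592A. Of the members, 19 and 10 in F592A and 71 and 150 in WT reached the highest of these floors, that of WT 2. The 150 spots made up 5.29% and 5.45% of the tissue spots in F592A and 4.92% and 7.40% in WT.

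The members lay in patches rather than scattered over the sections. On the hexagonal grid, 48.5% and 56.7% of the neighbours of a member were members in the F592A sections, and 61.1% and 62.0% in the WT sections. The lower value in both F592A sections gave a mean difference of −8.98 points of percent (p = 0.333 by an exact permutation test, two-sided, the smallest p that 2 sections against 2 allow). Members formed 33 and 26 separate patches in F592A and 13 and 20 in WT, and the largest patch held 75 and 82 spots in F592A and 46 and 107 in WT. The array maps show these patches together with the muscle-rich spots.

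**Figure D1:**
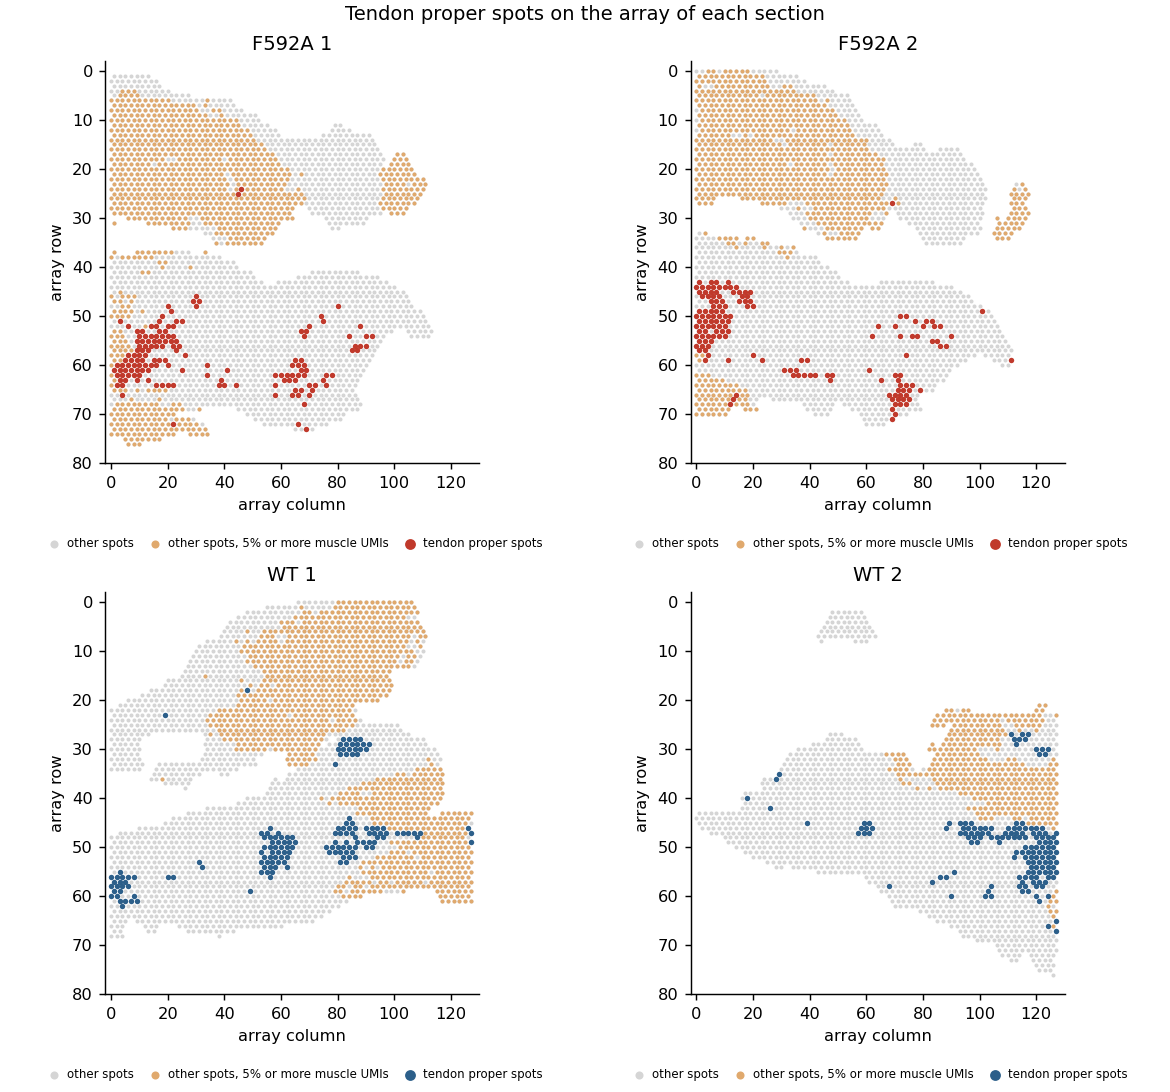
Array maps of the 4 sections by array column and row (no unit), with F592A sections above WT sections: coloured points are the 150 tendon proper spots of a section, tan points are other spots with 5% or more muscle UMIs, and grey points are the remaining spots of at least 1000 UMIs. Members form 33 and 26 patches in F592A and 13 and 20 in WT, and the F592A sections lie alike on the array.

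All 9 score genes were at a higher level in members than in the other spots of each section. Tnmd was at 1309 and 651 CPM (UMIs of the gene per 1000000 UMIs) in members of F592A 1 and F592A 2, against 476 and 255 CPM in their other spots. In WT 1 and WT 2, Tnmd was at 2384 and 2447 CPM in members and 914 and 957 CPM in the other spots. Thbs4 was the most abundant of the 9 and weighed most in the score. It gave 59.3% and 70.8% of the members' score UMIs in F592A and 39.0% and 40.2% in WT. The choice of spots therefore rested on Thbs4 more in F592A, and a score without Thbs4 kept 86 and 75 of the 150 members in F592A and 124 and 111 in WT.

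Few genes outside the score marked the members as sharply. Of 7258 genes with a mean of at least 20 CPM, 6 (0.0827%) were more than 1 log2 unit above the other spots in all 4 sections, after adding 20 CPM, and 5 of them were score genes. The other was Ssc5d, a secreted protein with scavenger receptor cysteine-rich domains, at 701 and 455 CPM in F592A members and 668 and 725 CPM in WT members, against 261 and 163 CPM in other F592A spots and 293 and 296 CPM in other WT spots. The next genes by their smallest log2 fold included Prg4 (lubricin, which coats gliding surfaces), Mgp (an inhibitor of mineralization), Pcolce (an enhancer of procollagen cleavage), Timp2 (a metalloprotease inhibitor), Mrc2 (a collagen uptake receptor) and Col22a1 (a collagen of the muscle and tendon junction). Their smallest log2 fold over the other spots was 0.82 for Prg4, 0.72 for Mgp and 0.66 for Col22a1. On the other side, 64 genes (0.882%) were more than 1 log2 unit below the other spots in every section. Among the 15 lowest were the muscle genes Ttn, Myh4, Atp2a1 and Tnnt3, the epidermal genes Krt5, Krt10 and Lor, and the haemoglobin gene Hba-a2.

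Tnmd, Comp and Thbs4 were lower in each farther distance class in every section. Tnmd in F592A 1 and F592A 2 was at 929 and 476 CPM in spots 1 grid step from a member and at 141 and 82.0 CPM in spots 9 or more steps away. In WT 1 and WT 2 it was at 1409.8 and 1493 CPM at 1 step and at 344 and 441 CPM at 9 or more steps. In each distance class, both F592A sections were below both WT sections for Tnmd. These genes chose the members, so the step from members to their neighbours is partly set by the rule.

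**Figure D2:**
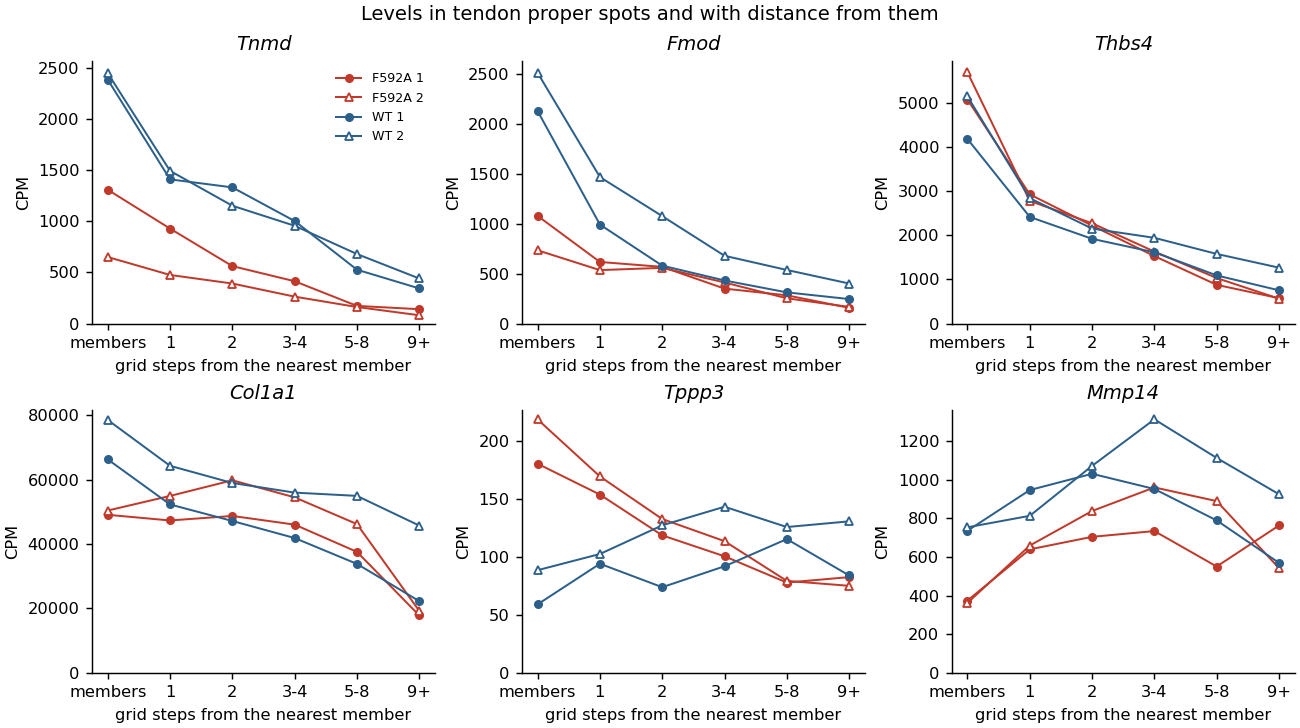
Levels (CPM) of 6 genes in tendon proper spots and in other spots grouped by grid steps from the nearest member, with 1 line per section. Tnmd declines with distance in all 4 sections, Tppp3 is higher in members than far from them in the F592A sections only, and Mmp14 is lower in members than 1 step away in all 4.

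Not every matrix gene followed this pattern. Col1a1, the main fibre collagen, was at 49073 and 50402 CPM in F592A members and 47319 and 54939 CPM at 1 grid step, so the F592A sections differed in direction. In WT it was at 66294 and 78555 CPM in members and 52289.7 and 64303 CPM at 1 step, higher in the members of both sections. Mmp14, a membrane-bound metalloprotease that cleaves collagen, was at 374 and 362 CPM in F592A members and 639.5 and 659 CPM at 1 step. In WT it was at 736 and 754 CPM in members and 947 and 814 CPM at 1 step. All 4 sections thus had less Mmp14 per UMI in the summed members than in the ring around them. The members were deeper than that ring, with a median of 32752 and 23380 UMIs in F592A members and 44108.5 and 29223 UMIs in WT members, against 12313 and 10982 UMIs at 1 step in F592A and 20602.5 and 11394 UMIs at 1 step in WT. In the shallower members Mmp14 was at 1403 and 1785 CPM in F592A and 1045 and 1825 CPM in WT, above the ring in every section.

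Members also differed by how close they lay to muscle. Of the members, 49 and 28 in F592A and 25 and 34 in WT lay within 2 grid steps of a spot with at least 5% muscle UMIs. Col22a1, a collagen of the muscle and tendon junction, was at 85.8 and 264 CPM in these members in F592A and at 205 and 89.0 CPM in WT. In the members farther from muscle it was at 2.52 and 7.33 CPM in F592A and 50.7 and 20.8 CPM in WT. Ankrd1, a stretch-responsive muscle gene, was likewise at 27.4 and 51.7 CPM near muscle in F592A and 50.7 and 16.0 CPM in WT, against 2.52 and 3.12 CPM farther away in F592A and 14.96 and 2.54 CPM in WT. Col1a1 ran the other way, at 43029 and 39208 CPM near muscle in F592A and 53198 and 72195 CPM in WT. Farther from muscle it was at 51963 and 54422 CPM in F592A and 68048 and 80069 CPM in WT. All 4 sections thus held a Col22a1-rich side toward muscle and a Col1a1-richer side away from it.

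Within the 150 members of a section, Tnmd and Thbs4 did not rank the spots alike. Their Spearman correlation over spots was −0.48 and −0.37 in F592A and −0.11 and −0.41 in WT. Tnmd and Scx ranked spots more alike, with 0.41 and 0.28 in F592A and 0.29 and 0.50 in WT. These are descriptions over spots that share a library, differ in depth and were selected on the sum of the score genes.

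Each score gene was set between F592A and WT in the 150 spots per section chosen by the other 8 genes, where it had not chosen the spots itself. The other 8 are still related to it. Thbs4 was among the choosing genes in every fit but its own, and it weighed more in the score in F592A. The score without Thbs4 and equal weights were not applied to these fits. The part of Thbs4 in the lower levels of the other score genes was thus not tested. UMIs were summed per section, CPM values in this and the following group comparisons carry trimmed-mean (TMM) scaling factors, and a gene passed at a Benjamini-Hochberg adjusted p under 0.05 over all genes of the fit. All but Thbs4 were lower in both F592A sections than in both WT sections, and Mkx and Chad passed the test. The share of all genes whose groups did not overlap is not given here, so the lower levels have no background beside them. Of all genes, 0.285% passed in the fit for Mkx and 0.225% in that for Chad, 0.15% for Tnmd, 0.255% for Kera, 0.158% for Fmod, 0.0828% for Comp, 0.0376% for Scx, 0.06% for Cilp2 and 0.0303% for Thbs4.

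Mkx was at 18.2 and 17.7 CPM in F592A and 59.1 and 65.9 CPM in WT. The groups did not overlap, and the log2 fold change was −1.80 ± 0.12 (standard error, quasi-likelihood test of edgeR, adjusted p = 0.0161). Chad was at 39.3 and 35.0 CPM in F592A and 120 and 209 CPM in WT, a log2 fold change of −2.14 ± 0.26 (edgeR, adjusted p = 0.0460). Without the second F592A section Chad no longer passed, and neither gene passed with 300 spots per section or with a common score floor. Tnmd was at 1157 and 559 CPM in F592A and 2054 and 2321 CPM in WT, and its log2 fold change of −1.35 ± 0.32 did not pass (edgeR, adjusted p = 0.188). The F592A sections differed for Tnmd by more than the WT sections did. Scx was at 163 and 125 CPM in F592A and 247 and 246 CPM in WT, without passing (edgeR, adjusted p = 0.129). In the other spots, without scaling factors, Mkx was at 10.0 and 7.65 CPM in F592A and 15.2 and 25.4 CPM in WT. Chad was there at 14.2 and 14.1 CPM in F592A and 33.3 and 52.7 CPM in WT. Each score gene but Thbs4 was lower there in both F592A sections than in both WT sections.

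Among the matrix genes of the score, Fmod was at 1029 and 685 CPM in F592A and 2066 and 2576 CPM in WT, and Kera at 89.3 and 64.5 CPM in F592A and 247 and 504 CPM in WT. The groups did not overlap in either gene, and neither passed (edgeR, adjusted p = 0.0739 for Fmod and 0.0611 for Kera). Comp was at 617 and 589 CPM in F592A and 1042 and 1365 CPM in WT, and Cilp2 at 99.9 and 50.0 CPM in F592A and 191 and 399 CPM in WT, also without passing (edgeR, adjusted p = 0.0782 for Comp and 0.147 for Cilp2). Thbs4 stood apart from the other 8 at 4230 and 4446 CPM in F592A and 3871 and 4277 CPM in WT, a log2 fold change of 0.09 ± 0.14 (edgeR, adjusted p = 0.878).

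**Figure D3:**
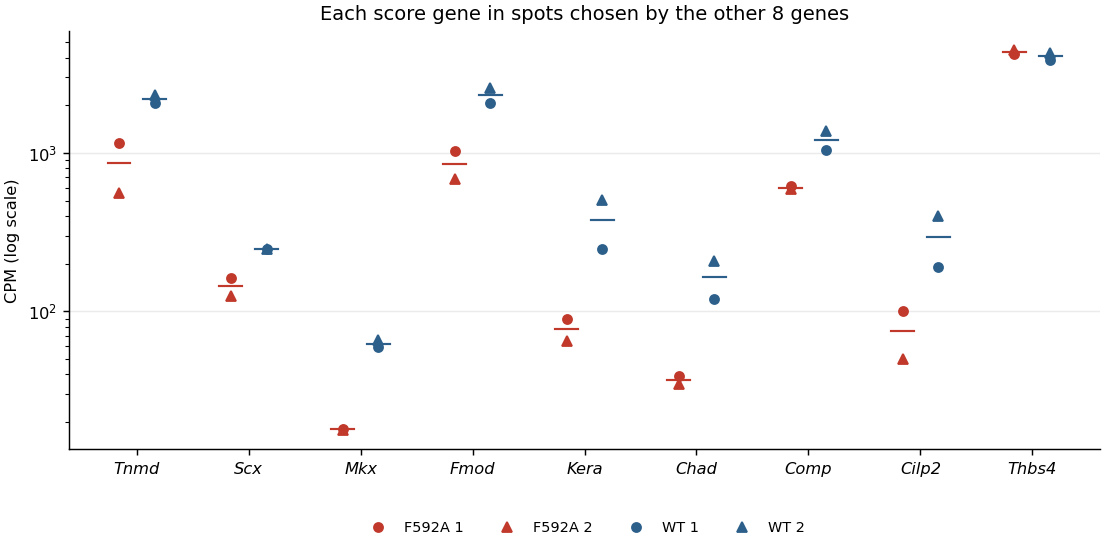
Level (CPM, log axis) of each of the 9 score genes in the 150 spots per section chosen by the other 8 genes, with F592A left of WT, 1 point per section and a line at the group mean. All but Thbs4 lie lower in both F592A sections, and Mkx and Chad passed the test.

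Outside the score, 39 of 13303 genes tested in the members differed between F592A and WT (0.293%), 11 higher in F592A (0.0827%) and 28 lower (0.21%). At an unadjusted p under 0.05 there were 1754. A later test asked whether the group difference in members differed from that in the other spots of the sections. Of the 39 genes, 13 passed it, 12 of them with the same sign, against 0.73% of all genes outside the score. Both tests used the same member sums, so the larger share among the 39 and the like signs are partly built in. The remaining genes of the 39 were not shown to be particular to the members. The median log2 fold change of all genes was −0.0011, and 49.8% of genes were positive. The 39 kept their direction in every alternative in which they could be tested, except Mmp14, but the count depended on the score: 3 genes passed with Thbs4 left out of it. Without WT 1, 52 genes passed and 18 of the 39 were lost, and without F592A 1, F592A 2 or WT 2 the counts were 418, 96 and 135.

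Cartilage-type collagens and their partners were among the genes lowest in F592A members. Col11a2, a chain of the minor fibril collagen XI that helps set fibril thickness, was at 31.3 and 20.2 CPM in F592A and 156 and 290.3 CPM in WT. Both F592A values were far below both WT values, a log2 fold change of −3.11 ± 0.34 (edgeR, adjusted p = 0.0403). Col11a1, a partner chain, was at 522 and 375 CPM in F592A and 1266 and 1187 CPM in WT, a log2 fold change of −1.45 ± 0.18 (edgeR, adjusted p = 0.0403). Col2a1, the main cartilage collagen, was at 10.9 and 10.2 CPM in F592A and 50.7 and 90.3 CPM in WT, a log2 fold change of −2.73 ± 0.28 (edgeR, adjusted p = 0.0384). Matn3, an adaptor protein of cartilage matrix, was at 7.94 and 5.22 CPM in F592A and 37.9 and 45.5 CPM in WT, a log2 fold change of −2.65 ± 0.22 (edgeR, adjusted p = 0.0222).

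These changes did not extend to all cartilage genes. Of 13 genes on the cartilage list, 8 were tested, 2 fell (Col2a1 and Matn3), none rose, and the median log2 fold change was −0.90. Sox9, a transcription factor of cartilage and of tendon attachment cells, was at 196 and 163 CPM in F592A and 77.9 and 104 CPM in WT, on the other side and without passing (edgeR, adjusted p = 0.0822). The summed cartilage list took 0.0571% and 0.0529% of member UMIs in F592A and 0.0654% and 0.0632% in WT.

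The bulk collagens of tendon did not pass. Of 12 tendon collagens tested, 1 fell (Col11a1) and none rose, with a median log2 fold change of −0.12. Col1a1 was at 48699 and 47808 CPM in F592A and 66963 and 83171 CPM in WT, so the groups did not overlap, but the log2 fold change of −0.64 ± 0.23 did not pass (edgeR, adjusted p = 0.318). Col12a1, a fibril-associated collagen, was at 1793 and 1426 CPM in F592A and 2893 and 2531 CPM in WT (edgeR, adjusted p = 0.141). Col3a1, typical of repair tissue, was at 23466 and 21578 CPM in F592A and 19784 and 20026 CPM in WT (edgeR, adjusted p = 0.743), and Col14a1 at 270.4 and 251 CPM in F592A and 213 and 317 CPM in WT, with overlapping groups (edgeR, adjusted p = 0.973).

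Other matrix proteins moved in both directions without passing. None of 18 on that list passed, 7 were positive and 11 negative, and the median log2 fold change was −0.08. Matn4 was at 114 and 97.4 CPM in F592A and 260.5 and 525 CPM in WT (edgeR, adjusted p = 0.0687). Cilp, relative of the score gene Cilp2, was at 809 and 536 CPM in F592A and 1272 and 1023 CPM in WT (edgeR, adjusted p = 0.206). On the other side lay Prelp, a leucine-rich matrix protein, at 951 and 1208 CPM in F592A and 422 and 648 CPM in WT (edgeR, adjusted p = 0.139), and Ecm1 at 442 and 870.2 CPM in F592A and 228 and 259.5 CPM in WT (edgeR, adjusted p = 0.119). The collagen-binding proteoglycan Dcn was at 3372 and 2920 CPM in F592A and 3698 and 3488 CPM in WT (edgeR, adjusted p = 0.655), and the wound matrix protein Postn at 7616 and 5191 CPM in F592A and 6120 and 4666 CPM in WT (edgeR, adjusted p = 0.711). Among 24 genes of collagen processing and crosslinking none passed, and 12 were positive and 12 negative.

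Adam23, a catalytically inactive membrane protein of the ADAM family, had the smallest adjusted p. It was at 9.95 and 9.03 CPM in F592A and 55.6 and 57.3 CPM in WT, a log2 fold change of −2.57 ± 0.13 (edgeR, adjusted p = 0.00315). The sections of a group lay close together and the groups far apart, and Adam23 passed in all 16 alternatives in which it could be tested. Clu, a secreted chaperone that also restrains complement, was at 60.0 and 41.8 CPM in F592A and 254 and 196 CPM in WT, a log2 fold change of −2.14 ± 0.21 (edgeR, adjusted p = 0.0367). Adam23 and Clu also passed with Thbs4 left out of the score and with equal weights of the score genes. In the other spots, Adam23 was at 4.72 and 5.99 CPM in F592A and 23.1 and 17.7 CPM in WT. Clu was there at 44.2 and 38.7 CPM in F592A and 83.2 and 108 CPM in WT. Both were thus lower in F592A outside the members too. Neither passed the test against the other spots (edgeR, adjusted p = 0.347 for Adam23 and 0.120 for Clu).

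Among growth factors, their binding proteins and their antagonists, Igf2, Igfbp3, Chrdl1 and Mstn fell. Igf2, an imprinted growth factor, was at 22.5 and 13.9 CPM in F592A and 111 and 71.0 CPM in WT, a log2 fold change of −2.32 ± 0.28 (edgeR, adjusted p = 0.0403). Igfbp3, which binds insulin-like growth factors, was at 74.4 and 73.5 CPM in F592A and 202 and 148 CPM in WT, a log2 fold change of −1.25 ± 0.16 (edgeR, adjusted p = 0.0444). Of 10 genes of the IGF system these 2 fell and none rose, with a median of −0.51. Among 10 imprinted growth genes 1 passed, Igf2 itself, and 9 were negative. Chrdl1, a secreted antagonist of bone morphogenetic proteins, was at 36.6 and 21.8 CPM in F592A and 115 and 103 CPM in WT, a log2 fold change of −1.90 ± 0.23 (edgeR, adjusted p = 0.0403), the only one to pass among 15 genes of BMP and GDF signalling. Mstn, a growth and differentiation factor known as a brake on muscle mass, was at 20.2 and 27.5 CPM in F592A and 58.9 and 68.0 CPM in WT, a log2 fold change of −1.41 ± 0.17 (edgeR, adjusted p = 0.0403).

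Further genes that fell include Cemip, which takes part in hyaluronan breakdown, at 26.9 and 18.4 CPM in F592A and 67.1 and 60.7 CPM in WT. Megf6, which carries epidermal growth factor-like repeats, was at 41.3 and 30.9 CPM in F592A and 101 and 105 CPM in WT, and Rasl11b, a small GTPase of the Ras family, at 23.3 and 18.1 CPM in F592A and 50.1 and 44.8 CPM in WT. The log2 fold changes of these 3 were −1.50, −1.51 and −1.20 (edgeR, adjusted p = 0.0403, 0.0384 and 0.0450). Their groups did not overlap, which the rule for naming them required. Smaller declines passed for the Wnt receptor Fzd8 (−1.07), the proteoglycan Sdc3 (−1.03) and the parathyroid hormone receptor Pth1r (−0.95). The sarcoplasmic reticulum regulator Sln (−4.78) and the potassium channel Kcnk1 (−2.56) also passed. Sln was lower in F592A in the other spots too, at 7.40 and 6.92 CPM against 125 and 135 CPM in WT. Kcnk1 was there at 4.18 and 3.56 CPM in F592A and 12.0 and 11.9 CPM in WT.

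Mmp14 was the one called member of the 13 matrix proteases and inhibitors tested, of which 11 were negative, with a median of −0.34. It was at 371 and 344 CPM in F592A and 744 and 798 CPM in WT, a log2 fold change of −1.11 ± 0.13 (edgeR, adjusted p = 0.0403). Its level differed with depth. In the deeper members of a section, Mmp14 was at 243 and 197 CPM in F592A and 637 and 519 CPM in WT, and in the shallower members the groups overlapped. With every spot thinned to 5000 UMIs the log2 fold change was −0.06, and at 1000 UMIs it was 0.08 (edgeR, adjusted p = 0.98 at both depths). Timp2, an inhibitor of metalloproteases, did not pass at 1959.5 and 1496 CPM in F592A and 2809 and 2742 CPM in WT (edgeR, adjusted p = 0.164).

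Hp, Lbp and Mgst1 rose in F592A members. Hp, the haemoglobin scavenger haptoglobin, was at 173 and 165 CPM in F592A and 34.5 and 59.6 CPM in WT, a log2 fold change of 1.85 ± 0.24 (edgeR, adjusted p = 0.0405). Lbp, which presents bacterial lipopolysaccharide to its receptors, was at 343 and 484.0 CPM in F592A and 114 and 138 CPM in WT, a log2 fold change of 1.72 ± 0.19 (edgeR, adjusted p = 0.0403). Mgst1, a membrane glutathione transferase, was at 139.8 and 149.5 CPM in F592A and 55.6 and 71.8 CPM in WT, a log2 fold change of 1.19 ± 0.15 (edgeR, adjusted p = 0.0403). Each of these 3 had both F592A sections above both WT sections, which the rule for naming them required. In the shallower members Hp was at 82.3 and 75.9 CPM in F592A and 36.3 and 84.7 CPM in WT, and the groups overlapped. With Thbs4 left out of the score, Hp had a log2 fold change of 1.12 and did not pass (edgeR, adjusted p = 0.188). Lbp also varied with depth within F592A sections. It was at 369 and 549 CPM in the deeper F592A members and 164 and 182 CPM in the shallower ones, but at 114 and 133 CPM in the deeper WT members and 110 and 115 CPM in the shallower ones. None of 9 genes tested on the acute inflammation list passed.

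Nfil3, Per1 and Atf3 rose. Nfil3, a repressor tied to the circadian clock, was at 45.4 and 51.5 CPM in F592A and 12.8 and 15.4 CPM in WT, a log2 fold change of 1.79 ± 0.15 (edgeR, adjusted p = 0.0222). Per1, a core clock gene, was at 74.3 and 92.4 CPM in F592A and 35.9 and 30.8 CPM in WT, a log2 fold change of 1.32 ± 0.15 (edgeR, adjusted p = 0.0403). In the other spots Per1 was also higher in F592A, at 52.3 and 62.9 CPM against 28.1 and 27.1 CPM in WT. So was Nfil3, at 29.6 and 26.2 CPM in F592A against 15.6 and 15.2 CPM in WT. The labels give no time of day for tissue collection, so its part in the result was not tested. Atf3, a stress-response factor, was at 22.8 and 28.8 CPM in F592A and 6.42 and 4.89 CPM in WT, a log2 fold change of 2.16 ± 0.22 (edgeR, adjusted p = 0.0377). It was the only one of 16 immediate early genes to pass, and 14 of the 16 were positive, with a median of 0.55. Nr4a1, a nuclear receptor induced early, was at 225 and 217 CPM in F592A and 50.2 and 85.5 CPM in WT, just outside the threshold (edgeR, adjusted p = 0.0502). Egr1 was at 87.5 and 110.4 CPM in F592A and 56.5 and 75.2 CPM in WT (edgeR, adjusted p = 0.228). Of 10 genes responsive to mechanical load none passed. Among them, Ccn1 was at 376 and 303 CPM in F592A and 130.4 and 167 CPM in WT (edgeR, adjusted p = 0.0528). Also higher were Tmem100, a membrane protein of BMP-responsive cells (1.75), the kinase Sik1 (1.53) and Ociad2 (1.48), in log2 fold change. Nr4a1 was higher in F592A in the other spots too, at 111 and 127 CPM against 41.3 and 59.5 CPM in WT. Ccn1 was there at 221 and 188 CPM in F592A and 75.9 and 68.2 CPM in WT. In the test against the other spots Atf3 passed, but Per1, Nfil3, Nr4a1 and Ccn1 did not (edgeR, adjusted p = 0.0368, 0.557, 0.0612, 0.232 and 0.667).

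Tendon sheath and progenitor genes were mostly positive, 10 of 11 with a median of 0.58, and none passed. Tppp3, a marker of sheath cells that include tendon progenitors, was at 179 and 208 CPM in F592A and 59.7 and 93.9 CPM in WT (edgeR, adjusted p = 0.0654). Has1, a hyaluronan synthase, was at 47.8 and 66.0 CPM in F592A and 6.17 and 15.2 CPM in WT (edgeR, adjusted p = 0.0555). Ly6c1 was at 528 and 706 CPM in F592A and 285 and 296 CPM in WT (edgeR, adjusted p = 0.0593). The summed list took 0.323% and 0.444% of member UMIs in F592A and 0.206% and 0.231% in WT (exact two-sided permutation test, p = 0.333). Both F592A sections had the larger share, and its part in the other results was not tested.

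**Figure D4:**
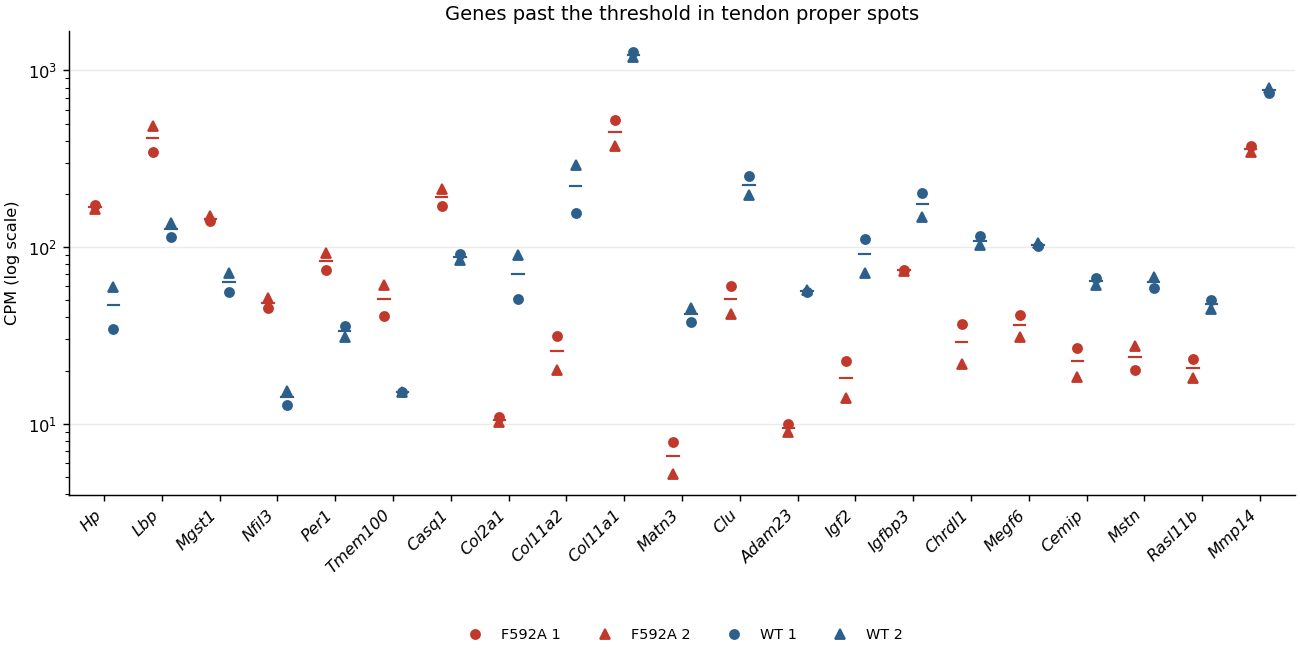
Levels (CPM, log axis) of 21 genes past the threshold in tendon proper spots, with F592A left of WT, 1 point per section and a line at the group mean. In each gene both sections of one group lie above both sections of the other, which the naming rule required of all but Matn3 and Mmp14.

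Of the muscle lists, 1 gene passed. All 14 fast muscle genes were positive (median 0.87) and none passed, and all 8 slow muscle genes were negative (median −1.47) and none passed. In Myl3, one of the slow genes, the groups overlapped. Of 8 regenerating muscle genes tested, all were negative and 1 passed, the embryonic myosin Myh3, at 2.12 and 1.09 CPM in F592A and 83.4 and 24.8 CPM in WT (edgeR, adjusted p = 0.0495). Myh3 was lower in F592A in the other spots too, at 1.84 and 0.499 CPM against 183 and 51.6 CPM in WT. Slow muscle genes took 0.0752% and 0.0867% of the other spots' UMIs in F592A and 0.302% and 0.170% in WT. Fast muscle genes took 2.56% and 3.07% there in F592A and 2.76% and 2.13% in WT, with overlapping groups. Casq1, a calcium store protein of fast fibres, rose, at 170.0 and 212 CPM in F592A and 91.4 and 84.3 CPM in WT, a log2 fold change of 1.12 ± 0.14 (edgeR, adjusted p = 0.0405). All muscle lists together took 1.21% and 0.876% of member UMIs in F592A and 0.604% and 0.702% in WT. Members with at least 5% muscle UMIs numbered 14 and 6 in F592A and 1 and 1 in WT. Without them 90 genes passed, among them 37 of the 39, and only Casq1 and Mstn were lost.

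Wound fibroblast and scar genes took 2.06% and 1.78% of member UMIs in F592A and 2.37% and 1.90% in WT. In the other spots they took less, 1.83% and 1.42% in F592A and 1.78% and 1.61% in WT. The members thus also held scar-type RNA, and none of the 12 genes on that list passed. Further cell types left smaller shares. Macrophage genes were positive in all 14 (median 0.32) and took 0.316% and 0.388% of member UMIs in F592A and 0.288% and 0.255% in WT, and none passed. Endothelial genes were positive in 9 of 10 (median 0.25), and adipocyte genes in 8 of 9 tested (median 1.66). Schwann and myelin genes were negative in all 6 tested (median −1.22), with 0.0321% and 0.0382% of member UMIs in F592A and 0.0691% and 0.0374% in WT. Their share was lower in F592A in the other spots too, at 0.0389% and 0.0360% against 0.188% and 0.0798% in WT. Ngfr, the neurotrophin receptor p75, was at 0.847 and 2.29 CPM in F592A and 2.59 and 2.90 CPM in WT (edgeR, adjusted p = 0.567). In a sum over spots, fewer cells of a type and less RNA per cell cannot be told apart.

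The group difference was then set against that in the other spots of the same sections, in one fit of 8 sums with the section as a block. The difference between members and other spots passed for 112 of 15343 genes (0.73%), with 57 positive (0.372%) and 55 negative (0.358%), and 1490 had an unadjusted p under 0.05. Few of these calls passed with spots thinned to an equal depth. Thinning gives spots equal weight but also lowers the counts. The member sums fell to between 710000 and 745000 UMIs per section at 5000 UMIs per spot, and to 150000 at 1000. The part of each in the lost calls cannot be told apart. With each spot thinned to 5000 UMIs 7 genes passed, 3 of them among the 112, although 111 of the 112 kept their direction. At 1000 UMIs none passed, 455 had an unadjusted p under 0.05 (edgeR), and 82 of the 106 calls that could be tested kept their direction. CPM values of this fit differ slightly from those above because they carry its own scaling factors.

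Hp, Lbp and Tppp3 had positive interactions, none of which passed at 5000 UMIs or with Thbs4 left out of the score. Hp in the members was at 179 and 172 CPM in F592A and 35.7 and 62.0 CPM in WT, and in the other spots at 54.8 and 48.6 CPM in F592A and 65.0 and 55.4 CPM in WT. Both F592A sections were above both WT sections in the members and below them in the other spots, with an interaction of 2.11 ± 0.26 on the log2 scale (edgeR, adjusted p = 0.0176). Lbp was at 356 and 505 CPM in F592A members and 118 and 143 CPM in WT members, against 110.2 and 138 CPM in other F592A spots and 85.3 and 111 CPM in other WT spots (interaction 1.36 ± 0.14, edgeR, adjusted p = 0.0144). Tppp3 was at 186 and 217 CPM in F592A members and 61.8 and 97.6 CPM in WT members, against 107 and 104.6 CPM in other F592A spots and 89.6 and 124 CPM in other WT spots (interaction 1.36 ± 0.15, edgeR, adjusted p = 0.0144).

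Col2a1, Col11a2, Matn3 and Mstn had negative interactions. Col2a1 was at 11.3 and 10.7 CPM in F592A members and 52.4 and 93.8 CPM in WT members, against 14.0 and 10.8 CPM in other F592A spots and 11.1 and 31.2 CPM in other WT spots (interaction −2.07 ± 0.23, edgeR, adjusted p = 0.0144). Col11a2 was at 32.5 and 21.1 CPM in F592A members and 161 and 302 CPM in WT members, against 21.3 and 19.7 CPM in other F592A spots and 23.7 and 73.6 CPM in other WT spots (interaction −2.02 ± 0.24, edgeR, adjusted p = 0.0175). Matn3 had an interaction of −2.05 ± 0.18 (edgeR, adjusted p = 0.0120), which did not pass at 5000 UMIs or with Thbs4 left out of the score, and was 0.73 at 1000 UMIs. Mstn had an interaction of −1.23 ± 0.16 (edgeR, adjusted p = 0.0182). Col2a1, Col11a2 and Mstn passed with Thbs4 left out of the score but not at 5000 UMIs. In both WT sections all 4 of these genes were higher in the members than in the other spots.

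Igf2 was lower in F592A in both places, and more so in the other spots. It was at 23.4 and 14.5 CPM in F592A members and 115 and 73.8 CPM in WT members, against 17.0 and 11.7 CPM in other F592A spots and 198 and 129 CPM in other WT spots (interaction 1.19 ± 0.13, edgeR, adjusted p = 0.0144). Cldn5, a tight-junction gene of endothelium, was at 39.2 and 39.95 CPM in F592A members and 29.5 and 25.8 CPM in WT members, against 26.6 and 26.6 CPM in other F592A spots and 44.3 and 42.8 CPM in other WT spots (interaction 1.23 ± 0.13, edgeR, adjusted p = 0.0144). Its group difference ran in opposite directions in the members and in the other spots. Of the 112 genes, 70 had the larger group difference in the members and 42 in the other spots. Among those 112 were 6 of the 9 epidermal genes tested on the keratinocyte list, all negative. This list took 0.275% and 0.390% of the other spots' UMIs in F592A and 0.202% and 0.0749% in WT. The 6 are not a full count of epidermal calls. Negative calls outside the list included the keratins Krt15, Krt78 and Krt80 and the cornified envelope genes Lce1a1, Lce1c and Lce1l. The log2 group difference of Krt15 was 0.36 in the members and 1.77 in the other spots, and that of Krt80 −0.19 and 1.27.

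**Figure D5:**
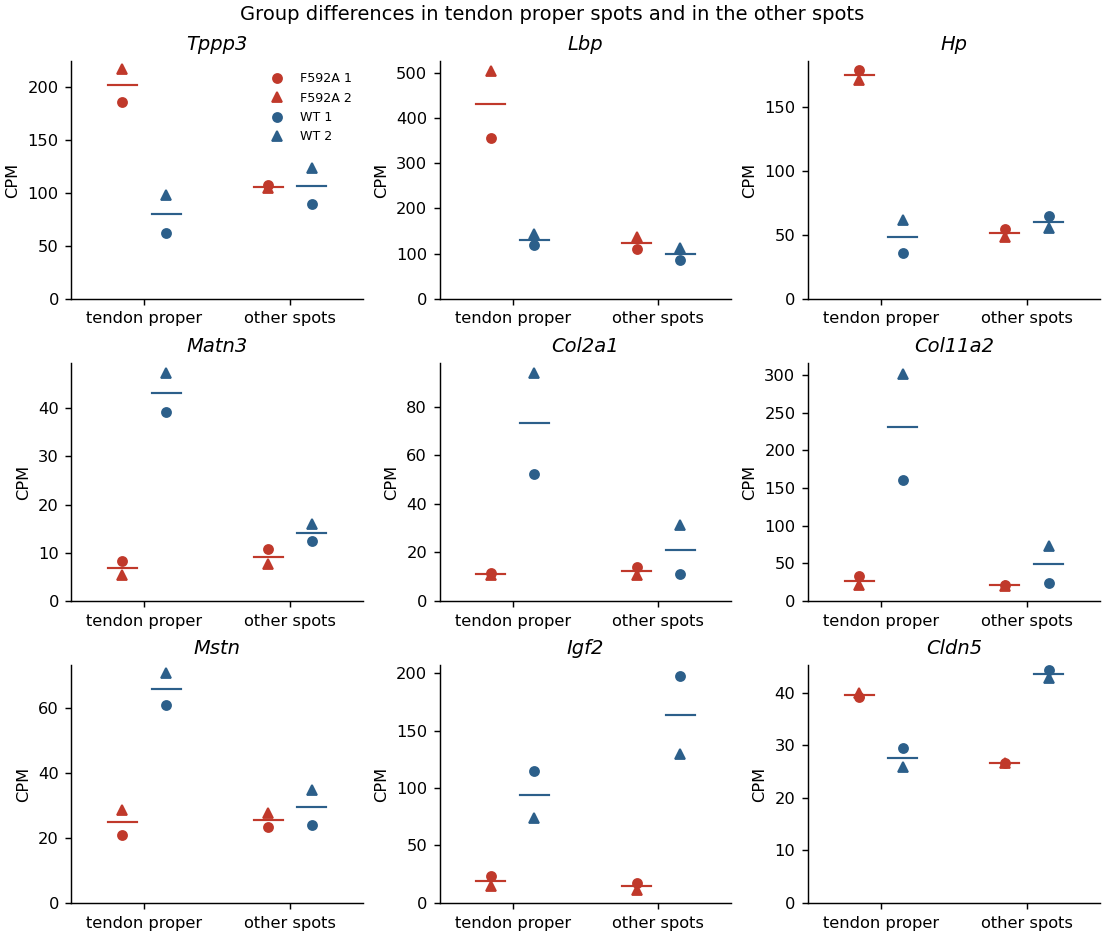
Levels (CPM, axes from 0) of 9 genes whose group difference was tested between tendon proper spots and the other spots of the sections, with F592A left of WT, 1 point per section and a line at the group mean. Hp and Lbp are higher in F592A in the members, and Col2a1 and Col11a2 are higher in WT in the members.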

How the data were processed

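Gene expression was measured by 10x Visium in 4 sections. The authors deposited filtered matrices of UMI counts per gene and spot, made with Space Ranger 1.3.0 per the file header; mm10 and Seurat 3 are named in the submitters' processing notes. All 32285 genes of the files were read, and no deposited value was normalized further before summing. The members and the 34 gene lists were chosen with earlier results of these data known.

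Counts of the 150 members of each section were summed and tested with edgeR 4.0.16 (R 4.3.3, quasi-likelihood test, TMM scaling, filterByExpr, Benjamini-Hochberg adjustment, threshold 0.05), and the 9 score genes were kept in the fit but out of its counts of calls. Each score gene was refitted in spots chosen by the other 8. A second fit used sums of members and of other spots, with a group by location term and the section as a block. The test scripts were tested on simulated data. Shares and neighbour values were compared with exact two-sided permutation tests (scipy 1.17.1). Levels by distance, near muscle, by depth and against the other spots are CPM without scaling factors.

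Genes were named by rule: up to 12 per direction with the largest log2 fold change among called genes whose mean log2 CPM reached 5 and whose groups did not overlap, up to 8 by smallest p for the interaction, 15 outside the score against the other spots, up to 3 per list, and 12 set genes. Other called genes (Sln, Kcnk1, Fzd8, Sdc3, Pth1r, Sik1 and Ociad2), Ankrd1, Lor, Krt5 and Myl3 were named after their values were seen. So were Krt15, Krt78, Krt80, Lce1a1, Lce1c and Lce1l. One called gene is not reported here. Alternatives were another scaling, DESeq2 1.42.0, no filter on low counts, a replicate block, each section left out, 75 or 300 spots, a common score floor, 2000 UMIs, no muscle-rich members and spots thinned to 1000 UMIs. A score without Thbs4, equal weights and thinning to 5000 UMIs were added after seeing the data. UMIs are molecules, and the sums per section, between 5842090 and 9374358, limit precision for genes of few CPM.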

Additional observations from a re-analysis of the deposited data

Results flagged for a closer look

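In the genes below, among the 112 that passed, the difference between F592A and WT was not the same in tendon proper spots as in the other spots of the sections, by the interaction test of edgeR with Benjamini-Hochberg adjustment. Values are log2 fold changes in the members minus those in the other spots. It was positive for Ankrd1 (2.71), Hp (2.11), Cxcl14 (1.49), Atf3 (1.48), Lbp (1.36), Tppp3 (1.36), Cldn5 (1.23), Igf2 (1.19), Casq1 (0.986) and Fbln1 (0.954). It was negative for Lor (−2.08), Col2a1 (−2.07), Matn3 (−2.05), Col11a2 (−2.02), Krtdap (−1.98), Krt5 (−1.30), Matn4 (−1.24), Mstn (−1.23), Cemip (−0.982) and Ltbp2 (−0.954). For Igf2 the positive value goes with a lower level in F592A in both places. Cxcl14, a chemokine of skin and connective tissue, was at 135 and 204 CPM in F592A members and 85.5 and 41.4 CPM in WT members, against 115 and 190 CPM in other F592A spots and 242 and 90.2 CPM in other WT spots. For Krtdap, an epidermal gene, the levels in members were 12.3 and 14.6 CPM in F592A and 24.2 and 5.27 CPM in WT, against 228 and 302 CPM in other F592A spots and 102 and 38.8 CPM in other WT spots. Of these genes, Krtdap and Lor still passed with spots thinned to 5000 UMIs.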

How the results depend on the processing

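The 39 genes called in the members became 250 with DESeq2, 256 without a filter on low counts, 90 without muscle-rich members, 18 with a common score floor, 9 with equal weights, 3 without Thbs4 in the score and 1 with 300 spots. Leaving out 1 section gave 52 to 418, where the lone section of a group is assumed to vary like the others. The 112 interaction calls became 706 without a filter, 44 with 300 spots, 36 with a common score floor, 36 without Thbs4, 7 at 5000 UMIs and 0 at 1000 UMIs, and 81 to 328 with 1 section left out. The 2 score genes became 7 without a filter, 6 with DESeq2 and at 5000 UMIs, 4 with 75 spots, without muscle-rich members and at 1000 UMIs, 1 with a common score floor and 0 with 300 spots, and 2 to 8 with 1 section left out. Thbs4 under the common score floor could not be fitted.

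Over genes, same-numbered sections did not deviate together from their group means (correlation −0.0483). With 2 sections per group this cannot show whether the numbers pair the sections. A replicate block gave 59 calls. At 1000 UMIs 82 of 106 interaction calls kept their sign. Among the genes named, signs changed at 1000 UMIs for the interactions of Casq1 (−0.15), Cemip (0.57), Matn3 (0.73), Cldn5 (−0.18) and Fbln1 (−0.26), for Fbln1 (−0.049) and Mmp14 (0.085) in members, and for Thbs4 (−0.25, and −0.027 at 5000 UMIs). The cartilage share difference was 0.000148 percentage points at 5000 UMIs. With 1 section left out, Postn ranged from −0.056 (without F592A 1) to 0.50 and Col14a1 from −0.29 to 0.29 (without WT 2). Col14a1 was 0.0014 with the replicate block, 0.031 with 300 spots, 0.0066 without muscle-rich members and 0.14 without Thbs4. The causes were not tested.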
